A study of Mus musculus with 12 samples.

Results

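The expression of 9 output genes of the circadian clock was examined in mouse liver. They comprise the D-box factors Dbp, Tef and Hlf and their antagonist Nfil3, the E-box repressors Bhlhe40 and Bhlhe41, the nuclear receptor gene Rora, and the rhythmic outputs Usp2 and Wee1. They were read through every array probe whose accession maps to one of these symbols, which gave 11 of the 39429 probes of the array, and 9 of the 20886 genes that carried a symbol. Dbp and Bhlhe41 had 2 probes each and the other genes 1, and each gene was read by its brightest probe.

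Liver RNA was measured in 12 females of the inbred laboratory strain C57BL/6N, with 3 mice in each of 4 diet groups and 1 array for each mouse. The mice were obtained at an age of 6 weeks, acclimated for 2 weeks and then kept on their diets for 6 months. Ctrl mice received a normal formula diet (NFD) with corn starch and sucrose as its carbohydrate. RS mice received the same diet with resveratrol, a plant stilbene. In the diet of DJ mice, rice of the variety Dongjin took the place of the corn starch and sucrose. In that of DJ526 mice, it was the rice DJ526, which was derived from Dongjin by transfer of the peanut gene for stilbene synthase and makes resveratrol in its grain. DJ526 therefore differs from DJ in the transferred gene as well as in resveratrol, and the dose of RS mice was not given in the sources used here. The mice lived under a 12-h light-dark cycle with the lights coming on in the evening, 10 to a cage. Per the methods, cages were allotted to the diets at random, so that mice of different diets did not share a cage. A difference between diets is thus also a difference between cages. The cage of each mouse and the hour at which the livers were taken were not given in the sources used here.

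The clock of a liver cell is a loop in which the proteins of Arntl and Clock switch on genes through E-boxes, the Per and Cry proteins and the E-box repressors oppose them, and ROR and REV-ERB receptors act on Arntl through ROR elements. The D-box factors carry the rhythm on to enzymes of bile acid, drug and lipid metabolism. In liver the messages of Dbp, Tef and the REV-ERB genes are known to peak in the part of the day in which those of Arntl, Clock and Nfil3 are low.

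The promoters of the members were searched for exact copies of these elements. The windows that held one are shown because they tell which of the members searched carry such a copy close to the start. Elements outside the windows were not searched, so a window without one does not mean that the gene lacks it. RefSeq windows (build GRCm38.p6) from 250 bases before to 50 bases after the start were given for 7 of the 9 genes. They were 8 windows in all, since Tef has 2 starts, and Bhlhe40 and Wee1 had none and were not searched. The start of the Nfil3 window and the second start of Tef lie inside the loci given below for these genes. The E-box CACGTG, which reads the same on both strands, was in 3 of these 8 windows and in 7.15% of all 32851 windows. The ROR element TAGGTCA, searched on both strands, was in 1 of 8 and in 2.61% of all. The D-boxes TTATGTAA and TTACGTAA and the E-prime box CACGTT were in none of the 8, and in 0.938%, 0.119% and 4.68% of all windows. Each stretch is printed 5′ to 3′ on the strand of its gene, with the element in capitals; that of Nfil3 is the ROR element read on the opposite strand.
Tef, first start, chr15:81802516-81802581, plus strand, element 127 bases before the start: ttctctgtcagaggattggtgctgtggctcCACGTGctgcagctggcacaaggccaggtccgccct
Tef, second start, chr15:81811246-81811311, plus strand, element 138 bases before the start: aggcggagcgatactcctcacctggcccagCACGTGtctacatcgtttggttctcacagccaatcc
Bhlhe41, chr6:145865538-145865603, minus strand, element 153 bases before the start: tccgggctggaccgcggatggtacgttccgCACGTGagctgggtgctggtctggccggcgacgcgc
Nfil3, chr13:52981040-52981081, minus strand, element 12 bases before the start: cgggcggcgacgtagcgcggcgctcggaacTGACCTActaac

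On each array, 73.0% to 80.8% of the 43020 spots other than controls were well above background, and 0 were saturated. The arrays lay on 3 slides, each scanned as a unit. Slide 1 held Ctrl 1 to 3 and DJ 1, slide 2 held DJ 2, DJ 3, RS 1 and RS 2, and slide 3 held RS 3 and DJ526 1 to 3, so that slide and diet were largely bound together. All 6 hepatocyte markers searched were well above background on every array. Their levels were summed on the linear scale, where the brighter probes weigh most. The log2 of this sum was 10.87 to 11.07 in Ctrl, 10.99 to 11.09 in RS, 11.10 to 11.17 in DJ and 10.89 to 10.94 in DJ526. The matched markers of Kupffer cells and macrophages, endothelial cells, stellate cells, lymphocytes, bile duct cells and red blood cells, 4 of each, were also well above background throughout, as were 1 of 3 of pancreas and 0 of 3 of fat cells. The fat cell markers were so on 7 to 10 arrays, and all 3 were highest in Ctrl 1, DJ 2 and RS 1. The log2 level of Cfd was -0.08, -1.04 and -1.15 in these mice and -8.49 to -4.10 in the others. None of these markers was called in any comparison (limma, adjusted p). In whole tissue, fewer cells of a type and less RNA per cell cannot be told apart. A supplementary sample table of the study gives the array identifiers of RS and DJ the other way round; the labels of the arrays were followed, and if that table were right, every value given here for RS would belong to DJ and the reverse. The title of the array of Ctrl 3 gives it its own number, but its source name repeats that of Ctrl 1. The title was followed; the log2 levels of Ctrl 1 and Ctrl 3 differed with an SD of 0.653 over the probes, that of Ctrl 2 and Ctrl 3 being 0.598.

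Levels are given as log2 of the processed signal over the 75th percentile of its array, and differences between groups as log2 fold changes on this scale. Levels of different probes cannot be set against each other. Of the 11 probes, 9 were well above background on all 12 arrays. The brighter probe of Bhlhe41 was so on 11, missing 1 of 3 in Ctrl, and its other probe on 1 RS and 1 DJ array only.

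Dbp (chr7:45705100-45710203), which encodes the D-box activator that is among the most rhythmic messages of the liver, had the widest spread between mice of the 9 genes read by their brightest probe. Its level was 5.40, 2.41 and 4.71 in Ctrl mice 1, 2 and 3, and 4.53, 4.86 and 4.57 in RS. It was 3.48, 3.83 and 5.35 in DJ and 4.10, 4.57 and 5.59 in DJ526. Ctrl 2 lay far below all other mice, and the 4 groups overlapped. The means ± SD (n = 3) were 4.17 ± 1.57 in Ctrl, 4.22 ± 0.991 in DJ, 4.65 ± 0.181 in RS and 4.75 ± 0.762 in DJ526, in which order no neighbours differed beyond their spread. The highest level, in DJ526 3, was 9.10-fold the lowest, in Ctrl 2. Ctrl 2 was also the highest of the 12 mice in all 4 bile duct markers. One of them, Krt19, was 0.60 in Ctrl 2 and -2.71 to -1.81 in the other mice. The part of these markers in the result was not tested. The array of Ctrl 2 also had the lowest share of spots well above background, 73.0%, whereas that of DJ 3, with 73.3%, had one of the highest Dbp levels; the part of this share in the result was not tested. The second Dbp probe gave a 10.6-fold range and followed the first over the mice with r = 0.992 (n = 12, a description).

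Tef (chr15:81802673-81826863) encodes a D-box activator of the same family. Its level was 5.97, 4.97 and 5.64 in Ctrl, 5.56, 5.78 and 5.68 in RS, 5.46, 5.03 and 5.49 in DJ, and 5.54, 5.60 and 6.02 in DJ526. Ctrl 2 was again the lowest and DJ526 3 the highest of the 12, with a 2.07-fold range, and all 3 DJ mice lay below all 3 DJ526 mice. Hlf (chr11:90336535-90390917), the third D-box activator, lay between 1.27 in DJ 2 and 1.99 in RS 2. Its group means ran from 1.37 ± 0.171 in DJ over 1.52 ± 0.183 in DJ526 and 1.53 ± 0.302 in Ctrl to 1.62 ± 0.328 in RS, and all groups overlapped.

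Nfil3 (chr13:52967209-52982878), the repressor that competes with these activators for the D-box, was 1.89, 2.66 and 1.84 in Ctrl and 1.88, 1.58 and 1.94 in RS. It was 2.91, 2.04 and 1.34 in DJ and 2.54, 1.84 and 1.06 in DJ526. It was thus high in Ctrl 2, DJ 1 and DJ526 1, which had low Dbp, and lowest in DJ526 3, which had the highest Dbp. The range over the mice was 3.62-fold, with all groups overlapping and means from 1.80 ± 0.194 in RS to 2.13 ± 0.459 in Ctrl.

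**Figure D1:**
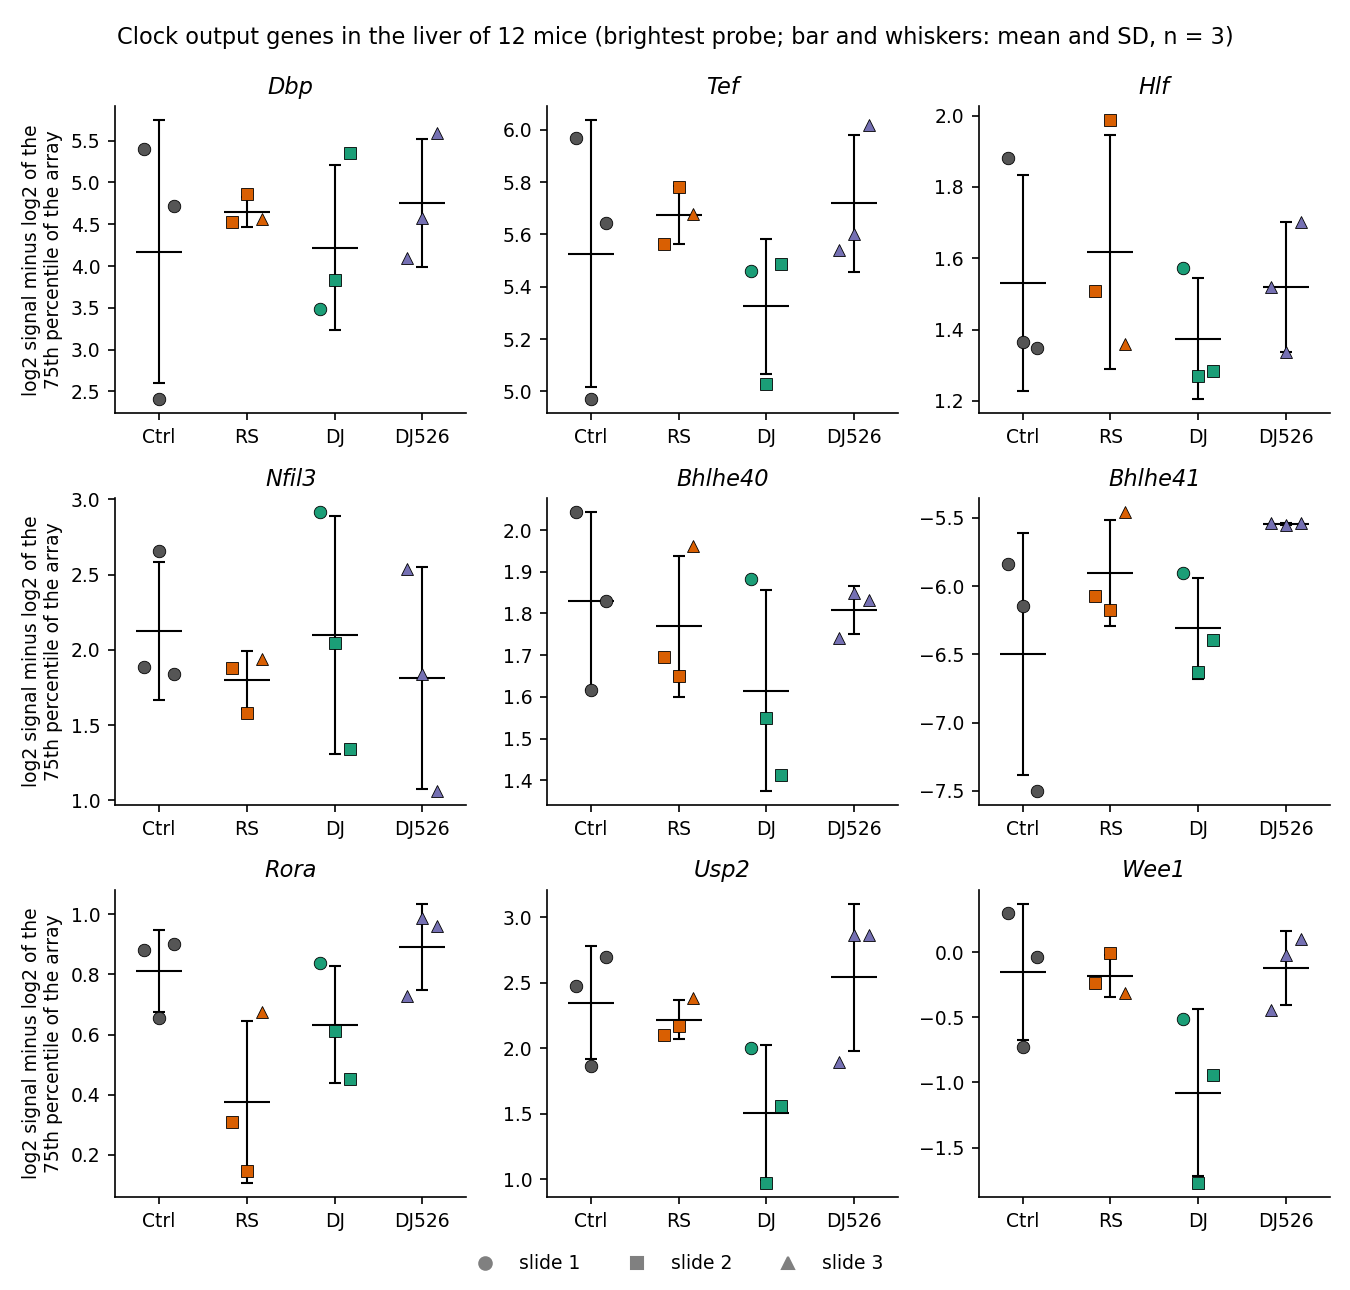
Levels of the 9 genes (brightest probe) by diet, as log2 of the signal over the 75th percentile of its array, on a separate vertical scale for each gene. Each point is 1 of 12 mice, its shape shows the slide, and bars with whiskers are the mean and SD of 3 mice; Dbp spans 2.41 to 5.59, and the DJ mice are low for Usp2 and Wee1.

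Bhlhe40 (chr6:108660629-108666925), a repressor that binds E-boxes, had the smallest range of the 9 genes, 1.55-fold. It lay between 1.41 in DJ 3 and 2.04 in Ctrl 1, and its group means between 1.61 ± 0.241 in DJ and 1.83 ± 0.213 in Ctrl. Bhlhe41 (chr6:145858243-145865420), its close relative, was dim. It was at -5.84, -6.15 and -7.50 in Ctrl, the last not well above background, at -6.07, -6.18 and -5.46 in RS, at -5.90, -6.63 and -6.39 in DJ, and at -5.54, -5.55 and -5.53 in DJ526. The 3 DJ526 mice lay close together and above all mice of Ctrl and DJ, but not above RS 3, which shares their slide. The mean level was -6.50 ± 0.885 in Ctrl, -6.31 ± 0.370 in DJ, -5.90 ± 0.389 in RS and -5.54 ± 0.00722 in DJ526.

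Rora (chr9:68653404-69388246) encodes a receptor that activates genes through ROR elements. Its level was 0.88, 0.65 and 0.90 in Ctrl, 0.31, 0.15 and 0.67 in RS, 0.84, 0.61 and 0.45 in DJ, and 0.73, 0.99 and 0.96 in DJ526. RS 1 and RS 2 had the lowest levels, followed by DJ 3 and DJ 2, and these 4 mice are the 4 of slide 2. The means were ordered RS (0.38 ± 0.270), DJ (0.63 ± 0.193), Ctrl (0.81 ± 0.137) and DJ526 (0.89 ± 0.143), and neighbours in this order overlapped.

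Usp2 (chr9:44067021-44095627), a rhythmic gene for a deubiquitinating enzyme, was 2.48, 1.87 and 2.70 in Ctrl and 2.10, 2.17 and 2.38 in RS. It was 2.00, 0.97 and 1.56 in DJ and 1.90, 2.86 and 2.87 in DJ526. DJ 2 and DJ 3 were the lowest of the 12 mice, while DJ 1 was above Ctrl 2 and DJ526 1. The means were 1.51 ± 0.517 in DJ, 2.22 ± 0.147 in RS, 2.35 ± 0.431 in Ctrl and 2.54 ± 0.560 in DJ526.

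Wee1 (chr7:110122059-110143299), which encodes a kinase that holds cells back from mitosis, had much the same order. Its level was 0.30, -0.73 and -0.04 in Ctrl and -0.24, -0.01 and -0.31 in RS. It was -0.52, -1.77 and -0.95 in DJ and -0.44, -0.02 and 0.10 in DJ526. All 3 DJ mice lay below all mice of RS and DJ526, and only Ctrl 2 came within their range. The means were -1.08 ± 0.638 in DJ, -0.19 ± 0.160 in RS, -0.15 ± 0.523 in Ctrl and -0.12 ± 0.285 in DJ526. For Usp2 and Wee1, DJ and RS were neighbours in the order of means and did not overlap. That pair was not tested, and the share of all probes that separate it was not counted. In the pairs of diets compared below, 9.39% to 20.8% of all probes separated the groups.

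The spread between mice on one diet was itself a feature in which the members differed. The SD pooled over the 4 diets was 1.01 for Dbp, and 0.942% of the 27285 probes that were well above background on all arrays had a larger one. It was 0.595 for Nfil3, exceeded by 4.57% of probes, and 0.444 for both Usp2 and Wee1, each exceeded by 10%. Tef, at 0.319, and Hlf, at 0.256, were exceeded by 21.9% and 32.9%. Rora (0.193) and Bhlhe40 (0.184) were close to the median of 0.190 over these probes. The SD of Dbp was 1.57 in Ctrl, which holds Ctrl 2, 0.991 in DJ, 0.762 in DJ526 and 0.181 in RS. Each gene was also set against probes whose mean level lay within 0.5 log2 units of its own. Of these, 0.575% exceeded Dbp, 1.95% Nfil3, 3.74% Usp2, 5.41% Wee1 and 10.4% Bhlhe41. For Tef, Hlf, Rora and Bhlhe40 the share was 11.4%, 13.8%, 29.6% and 30.6%. Dbp and Nfil3 thus varied more within a diet than most of the transcriptome. Rora and Bhlhe40 lay in the middle of all probes, but each of the 9 genes lay above most probes of like signal.

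**Figure D2:**
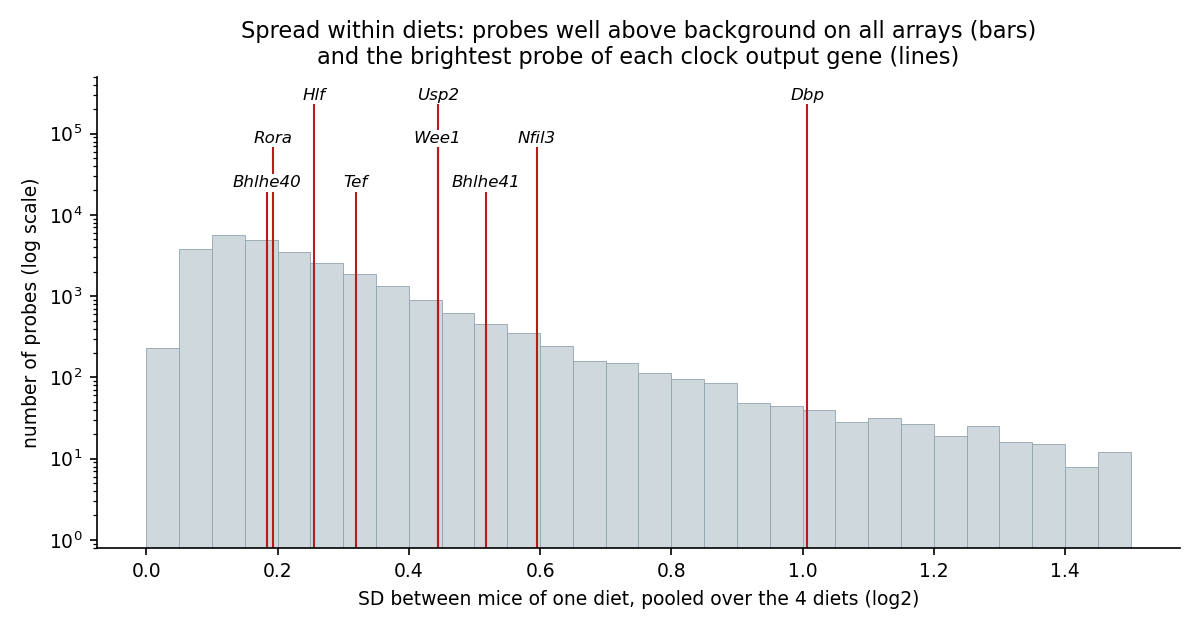
SD between mice of one diet, pooled over the 4 diets (horizontal axis, log2), for probes well above background on all arrays (grey bars, counts on a log scale), with a red line for the brightest probe of each of the 9 genes. Dbp, at 1.01, lies far to the right, and Bhlhe41, drawn at 0.518, was not well above background on every array; 42 probes with an SD above 1.5 are not drawn.

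Whether resveratrol in a starch and sucrose diet altered these genes was read from RS against Ctrl. No member probe was called (limma on all 12 arrays, Benjamini-Hochberg over 39429 probes, threshold 0.05), where 0% of all probes were. Unadjusted p was under 0.05 for 1 of the 11 member probes, against 6% of all probes, and 0 of the 11 separated the groups without overlap, against 10.2% of all. The probe was that of Rora, with a log2 fold change of -0.44 (SE 0.145, 95% interval -0.76 to -0.11, unadjusted p = 0.0123, adjusted p = 0.673 from limma), and the exact permutation test gave p = 0.2, where 3 mice against 3 cannot give less than 0.1. With the slide as a fixed block the value was -0.28, and within slide 2 RS was lower than DJ by -0.30. The other 8 genes had log2 fold changes between -0.33 and 0.60, with 4 of the 9 higher and a median of -0.03, beside 0.03 over all probes. The signs moved with the setting, 7 of 9 being higher with the fixed slide block (median 0.51) and 2 of 9 without Ctrl 2 (median -0.17).

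The effect of Dongjin rice was read from DJ against Ctrl. No member was called, where 0% of all probes were, and 2 of the 11 probes had an unadjusted p under 0.05, against 5.25% of all. None separated the groups, against 9.39% of all. Wee1 differed by -0.92 (SE 0.315, 95% interval -1.62 to -0.23, unadjusted p = 0.0138, adjusted p = 0.853 from limma) and Usp2 by -0.84 (SE 0.313, 95% interval -1.53 to -0.15, unadjusted p = 0.0214, adjusted p = 0.910 from limma), each with an exact permutation p = 0.2. The methods' t-test gave 0 of 11 at an unadjusted p under 0.05. Slide 1 alone, with DJ 1 against the 3 Ctrl mice, gave -0.36 for Wee1 and -0.35 for Usp2, which are also the values with the slide as a fixed block. Over the 9 genes 2 were higher and 7 lower in DJ, with a median of -0.18, beside -0.02 over all probes. With the fixed slide block 5 were higher and 4 lower (median 0.03), Nfil3 (0.79) and Bhlhe41 (0.59) being among the higher ones.

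Resveratrol rice was compared with the control diet, with its parent rice and with resveratrol alone. For DJ526 against Ctrl, no member was called, against 0.00507% of all probes, 1 of 11 had an unadjusted p under 0.05, against 10.8% of all, and 1 separated the groups, against 20.8% of all. This was Bhlhe41, with a log2 fold change of 0.96 (SE 0.396, 95% interval 0.09 to 1.83, unadjusted p = 0.0343, adjusted p = 0.423 from limma), measured above background on 2 of 3 Ctrl arrays. It was 0.45 without Ctrl 3 and 0.14 with normexp background correction. The second Bhlhe41 probe, well above background on no array of Ctrl or DJ526, gave -0.018. For RS and DJ against Ctrl this second probe gave -0.56 and -0.49, where the brighter probe gave 0.60 and 0.19. In the other comparisons both probes had a positive sign. The other 8 genes differed by -0.31 to 0.58, the last being Dbp. Of the 9 genes 6 were higher, which became 2 without Ctrl 2 and 7 with the fixed slide block.

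For DJ526 against DJ, again no member was called, against 0.0101% of all probes, 2 of 11 had an unadjusted p under 0.05, against 9.84%, and 3 separated the groups, against 18.5%. Usp2 differed by 1.03 (SE 0.313, 95% interval 0.34 to 1.72, unadjusted p = 0.00711, adjusted p = 0.355 from limma), with DJ526 1 inside the range of DJ. Wee1 differed by 0.96 without overlap (SE 0.315, 95% interval 0.26 to 1.65, unadjusted p = 0.0114, adjusted p = 0.402 from limma); a fixed slide block gave 1.43. Tef, by 0.40 (adjusted p = 0.587 from limma), and Bhlhe41, by 0.77 (adjusted p = 0.551 from limma), separated the groups as well. Only Nfil3 of the 9 genes was lower in DJ526 than in DJ, by -0.29, and the median was 0.40, beside 0.04 over all probes. With the fixed slide block Rora was lower as well (-0.09). The DJ mice are also those of the comparison with Ctrl, so that the values of Usp2 and Wee1 in these comparisons rest on the same 3 low mice and are not independent. The summed level of the hepatocyte markers was higher in DJ than in Ctrl and DJ526, as given above, with 5 of 6 markers higher than in Ctrl and 5 of 6 higher than in DJ526. The exception in both was Cps1, an enzyme of the urea cycle, which was lower in DJ by -0.29 on the log2 scale against Ctrl and 0.66 higher in DJ526 than in DJ; the part of these markers in the result was not tested. No slide held both DJ and DJ526, and only the RS mice, which lay on the slides of both, link them. The blocked value of this pair is thus the sum of RS minus DJ within slide 2 and DJ526 minus RS 3 within slide 3, for Usp2 0.87 and 0.16.

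The deviations of DJ and DJ526 mice from their group means correlated over probes between mice of the same number (r = 0.29, 0.17 and 0.16 for mice 1, 2 and 3), so these mice were also compared number by number. DJ526 minus DJ was 0.62, 0.74 and 0.25 for Dbp in mice 1, 2 and 3, and 0.08, 0.57 and 0.53 for Tef. It was -0.38, -0.20 and -0.28 for Nfil3, 0.36, 1.08 and 0.86 for Bhlhe41, and 0.07, 1.75 and 1.05 for Wee1. These 5 of the 9 genes (55.6%) had the same sign in all 3 mice, against 36.9% of all probes, while Usp2 gave -0.10, 1.89 and 1.31. With these 6 arrays alone and the number as a block, no member was called, where 0% of all probes were, and 7 of 11 member probes had an unadjusted p under 0.05, against 10.8% of all. They included both Dbp probes, at 0.53 (SE 0.115, adjusted p = 0.394 from limma) for the brighter, and Nfil3, at -0.29 (SE 0.0744, adjusted p = 0.405 from limma), and all 11 had adjusted p-values between 0.394 and 0.671. This fit was added after the values had been seen and leaves 2 residual degrees of freedom. Its pairing was chosen from these same arrays. In both groups Dbp rose with the number (3.48, 3.83 and 5.35 in DJ, 4.10, 4.57 and 5.59 in DJ526) and Nfil3 fell. The block thus takes out variation that these members share, and the share of 7 of 11 cannot be read as separate support for a difference. The 2 Dbp probes measure 1 gene. DJ and DJ526 mice of one number ate different diets and so lived in different cages. Nothing in the labels says that they share a litter or day.

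For DJ526 against RS, no member was called, against 0.00761% of all probes, 1 of 11 had an unadjusted p under 0.05, against 5.51%, and 1 separated the groups, against 11.1%. Rora differed by 0.52 (SE 0.145, 95% interval 0.20 to 0.84, unadjusted p = 0.00462, adjusted p = 0.479 from limma). It was 0.22 with the slide as a fixed block, which is the difference within slide 3 between the DJ526 mice and RS 3. The other genes differed by -0.10 to 0.36.

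**Figure D3:**
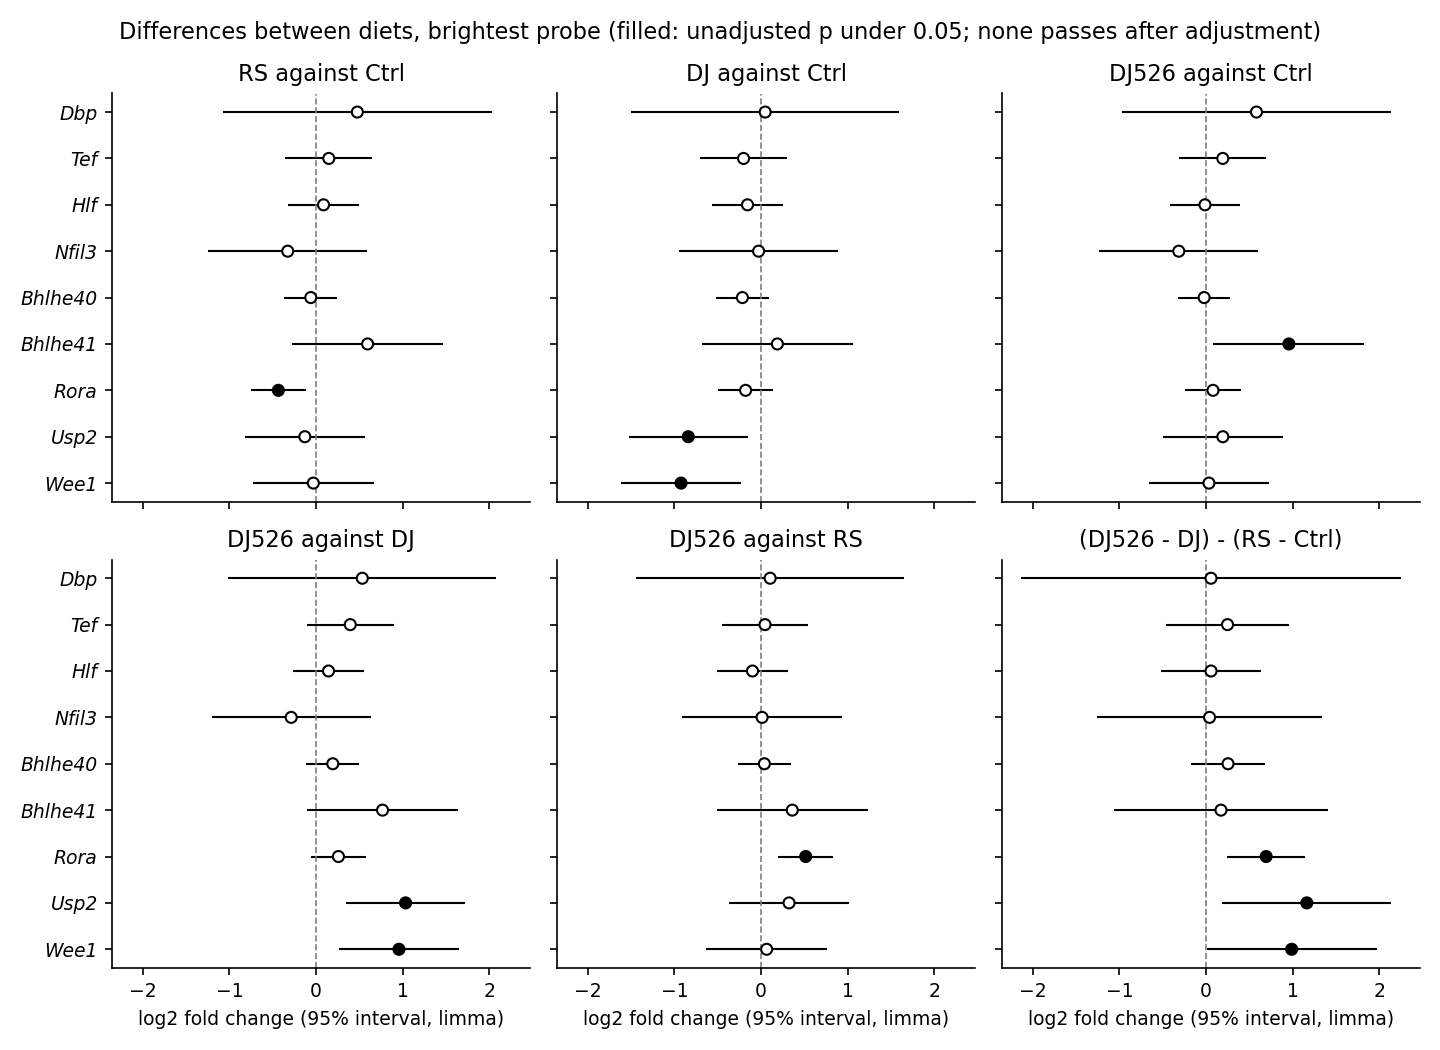
Log2 fold changes of the 9 genes (points, brightest probe) with 95% intervals from limma for 5 pairs of diets and for the difference between the resveratrol effects on the 2 diets. Filled points have an unadjusted p under 0.05; none passed after adjustment, and Usp2 and Wee1 lie near -0.9 for DJ against Ctrl and near 1 for DJ526 against DJ.

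Whether resveratrol acted differently on the rice diet was tested as the difference between DJ526 minus DJ and RS minus Ctrl. No member was called, where 0% of all probes were, and 3 of 11 had an unadjusted p under 0.05, against 6.14% of all. Rora gave 0.69 (SE 0.206, unadjusted p = 0.00625, adjusted p = 0.614 from limma), Usp2 1.16 (SE 0.443, unadjusted p = 0.0237, adjusted p = 0.730 from limma) and Wee1 0.99 (SE 0.446, unadjusted p = 0.0488, adjusted p = 0.813 from limma). A fixed slide block gave 0.19, 0.51 and 0.55, and 0 of 11 had an unadjusted p under 0.05. By their brightest probes all 9 genes had a positive difference, with a median of 0.25, beside 0.01 over all probes. That of Dbp was 0.06 (SE 0.995) and that of Nfil3 0.04 (SE 0.591), while the second Dbp probe gave -0.12. This uniform sign of the 9 genes was lost with the fixed slide block, where Nfil3 (-0.91), Bhlhe40 (-0.21) and Bhlhe41 (-0.68) were negative. Without Ctrl 2, Nfil3 (-0.22) and Bhlhe41 (-0.0029) were negative. The sign was also lost with the slide as a random block, with normexp background correction and with correction for position on the array. Leaving out any other mouse except DJ526 2 lost it as well. The 2 rice diets against the 2 starch and sucrose diets gave no call, where 0% of all probes were called, and 0 of 11 at an unadjusted p under 0.05, against 4.6% of all; 0 of 11 separated the 6 mice of each kind, against 0.122% of all.

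The Dbp difference between diets could not be read apart from Ctrl 2. Against Ctrl, RS mice differed by 0.48, DJ mice by 0.05 and DJ526 mice by 0.58 on the log2 scale, with a standard error of 0.703 in each (adjusted p = 0.998, 1.00 and 0.798 from limma). Without Ctrl 2, the values were -0.41, -0.84 and -0.30, also without a call. For RS the 95% interval with all mice ran from -1.07 to 2.03, so that a difference of 1 log2 unit in either direction lay within it.

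The levels of the members were next compared over the 12 mice without regard to diet, because Dbp varied far more between mice than between group means. Dbp was set against the other 8 members and 15 core clock genes, 23 relations in all, a comparison chosen after the values had been seen. Each relation was tested with 100000 permutations of the mice, with Benjamini-Hochberg adjustment over the 23. Tef followed Dbp with Pearson's r = 0.84 (permutation p = 0.00079, adjusted p = 0.0026) and Spearman's rho = 0.83 (permutation p = 0.00144, adjusted p = 0.00662). Nfil3 ran against Dbp with r = -0.85 (permutation p = 0.00047, adjusted p = 0.0018) and rho = -0.87 (permutation p = 0.00053, adjusted p = 0.00406). Without Ctrl 2 and DJ 1, the mice farthest from the median of Dbp, r was 0.78 for Tef and -0.79 for Nfil3. After subtraction of group means it was 0.86 and -0.83, and after subtraction of slide means 0.90 and -0.84. These relations were thus not lost when the means of diets or of slides were taken out. The centred values pool the mice of all diets or slides and were not tested. They do not show the relation in each diet by itself, and Ctrl 2 was kept in them.

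The other 6 members did not pass in both measures. Wee1 gave r = 0.49 (permutation p = 0.112, adjusted p = 0.234) and rho = 0.69 (permutation p = 0.0155, adjusted p = 0.0447), and DJ 2 and DJ 3 lay below the line of the other mice. Usp2 gave r = 0.44 (permutation p = 0.157, adjusted p = 0.278) and rho = 0.60 (permutation p = 0.0424, adjusted p = 0.0869). For Hlf, Bhlhe40, Bhlhe41 and Rora r was 0.37, 0.20, 0.07 and 0.03, with the smallest permutation p = 0.24. Within slide means Usp2 and Wee1 gave 0.65 and 0.66.

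**Figure D4:**
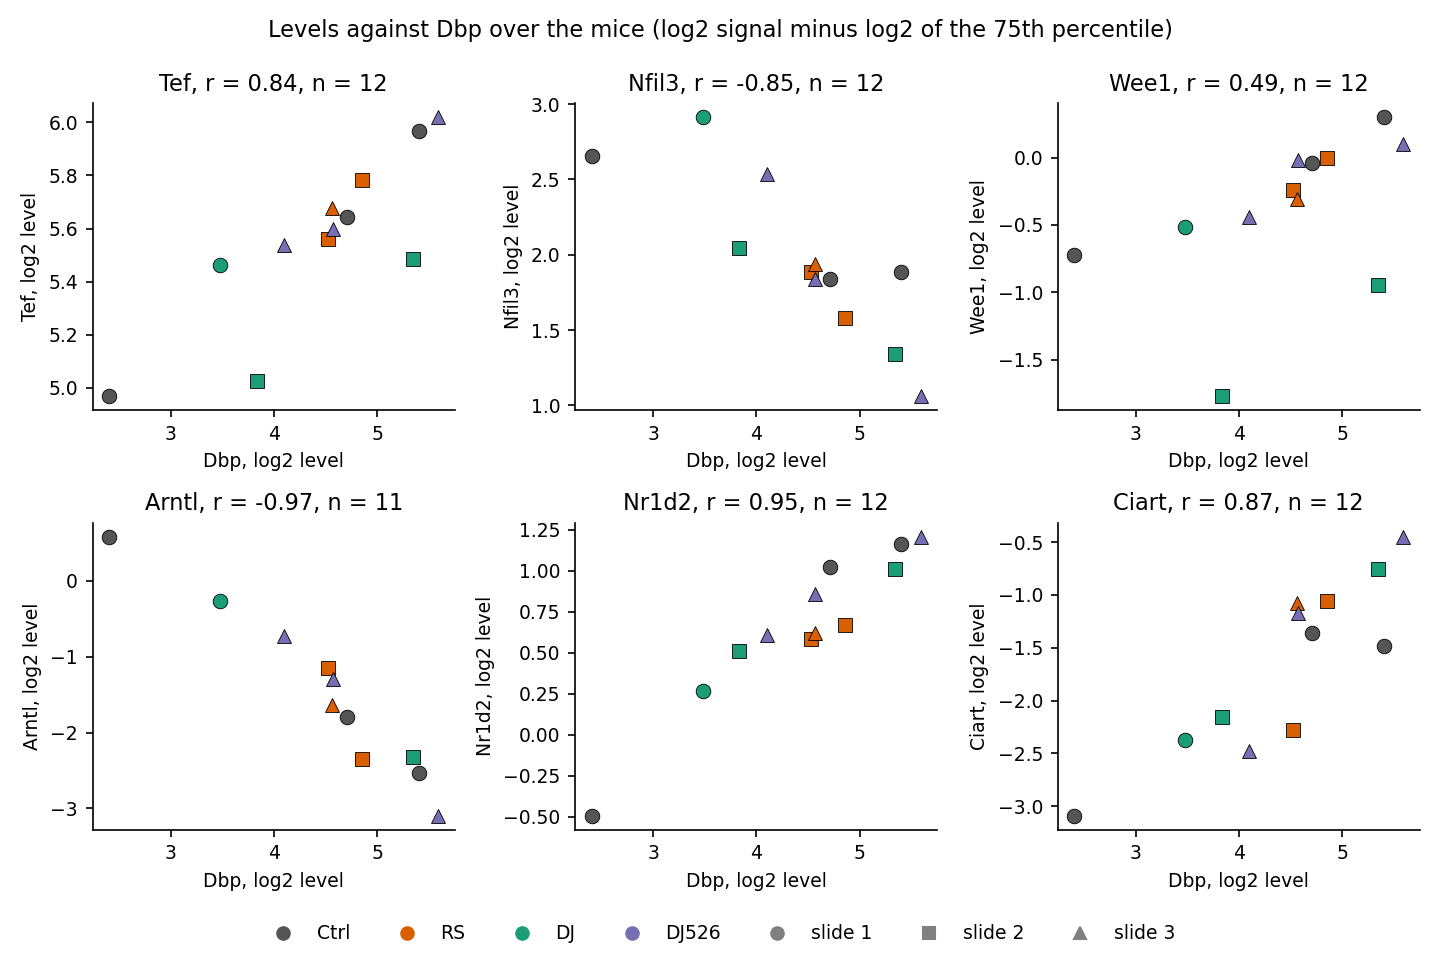
Levels of 6 genes against that of Dbp over the mice, both as log2 of the signal over the 75th percentile of its array; each point is 1 mouse, coloured by diet and shaped by slide, and r is Pearson's. Tef, Nr1d2 and Ciart rise with Dbp (r = 0.84, 0.95 and 0.87), Nfil3 and Arntl descend (r = -0.85 and -0.97), and 2 DJ mice lie apart from the others for Wee1.

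Of the core clock genes, 7 of 15 had an adjusted permutation p under 0.05 for r, 4 with a positive and 3 with a negative sign, and 5 of these passed for rho as well. Arntl, the activator at the head of the loop, had r = -0.97 and rho = -0.98 over the 11 mice with a value (permutation p = 1e-05 for each, the smallest that these permutations can give, adjusted p = 0.000115). Nr1d2, which encodes a REV-ERB receptor, had r = 0.95 and rho = 0.96 with the same p-values, and r = 0.87 without Ctrl 2 and DJ 1. Clock, the partner of Arntl, had r = -0.86 (permutation p = 0.00011, adjusted p = 0.000805), and Ciart, a rhythmic repressor, r = 0.87 (permutation p = 0.00014, adjusted p = 0.000805). Cry1 had r = -0.78 (permutation p = 0.00323, adjusted p = 0.00825), or -0.64 without these 2 mice. Nr1d1 (r = 0.85, permutation p = 0.00047, adjusted p = 0.0018) and Per3 (r = 0.76, permutation p = 0.00306, adjusted p = 0.00825) did not pass for rho, and without the 2 mice r was 0.56 and 0.48, so that these relations rested in part on them. Per2, by contrast, had r = 0.18 (permutation p = 0.59, adjusted p = 0.647).

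**Figure D5:**
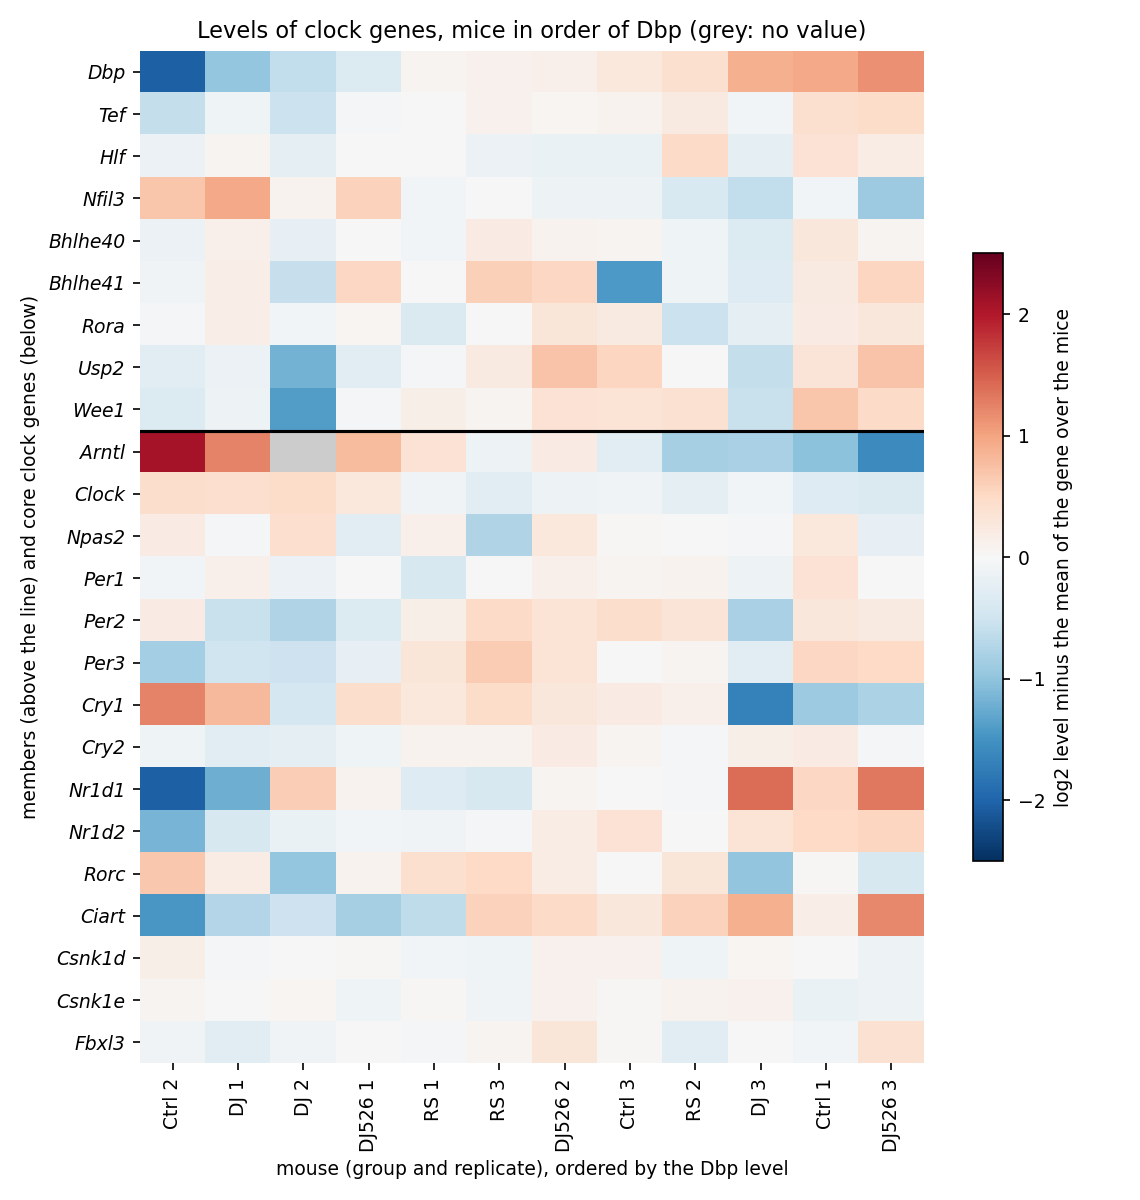
Levels of the 9 genes (above the line) and 15 core clock genes (below), as log2 level minus the mean of the gene over the mice, with the 12 mice ordered from the lowest Dbp (Ctrl 2, left) to the highest (DJ526 3, right). Arntl and Nfil3 run from red to blue while Tef, Nr1d2 and Ciart run from blue to red, mice of all 4 diets are mixed along the order, and the grey cell is an array without a value for Arntl.

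The order of the mice by Dbp was Ctrl 2, DJ 1, DJ 2, DJ526 1, RS 1, RS 3, DJ526 2, Ctrl 3, RS 2, DJ 3, Ctrl 1 and DJ526 3. Ctrl, DJ and DJ526 mice were thus spread along it, and the 3 RS mice lay in its middle. Along this order Arntl ran from 0.58 in Ctrl 2 to -3.10 in DJ526 3, and Nr1d2 from -0.49 to 1.21. Among 15558 genes whose brightest probe was well above background on all arrays, the pattern most like that of Dbp, with the other members left out, was that of Nr1d2 (r = 0.95 over 12 arrays), followed by Trib1 (0.92), Clmn (0.90), Pcsk4 (0.89) and Coq10b (0.88). Among the most opposite were Lgalsl (-0.96), Srms (-0.91), Leo1 (-0.91) and Gm13889 (-0.90). In all, 21 genes had r above 0.8 and 45 below -0.8, given as a description.

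The neighbouring genes of the clock were read by diet in the same way. Of 15 core clock genes, 0 were called in any comparison (limma). At an unadjusted p under 0.05 there were 1 for RS against Ctrl (6% of all probes), 2 for DJ against Ctrl (5.25%), 1 for DJ526 against Ctrl (10.8%), 2 for DJ526 against DJ (9.84%) and 1 for DJ526 against RS (5.51%). There were also 2 for the difference between the resveratrol effects (6.14%) and 2 for rice against starch and sucrose (4.6%). Per2, which encodes a repressor of the loop, was -0.48, -0.56 and -0.32 in Ctrl, -0.62, -0.45 and -0.30 in RS, -1.33, -1.53 and -1.59 in DJ, and -1.11, -0.42 and -0.55 in DJ526. The DJ mice lay below all others, as they did but for 1 mouse with Wee1, and the log2 fold change was -1.03 against Ctrl (SE 0.166, unadjusted p = 6.87e-05, adjusted p = 0.640 from limma) and 0.79 for DJ526 against DJ (adjusted p = 0.176 from limma). For rice against starch and sucrose it was -0.63 (unadjusted p = 0.000223, adjusted p = 0.954 from limma). Within slide 1, DJ 1 differed from Ctrl by -0.88 in Per2, and within slide 2 RS differed from DJ by 1.02.

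Genes that the D-box factors are known to drive in liver, 9 of 10 matched to a probe, gave 0 calls in any comparison. Cyp7a1, the rate-limiting enzyme of bile acid synthesis, differed most, by -1.20 for DJ against Ctrl (SE 0.414, adjusted p = 0.857 from limma, groups overlapping) and by -0.997 for DJ526 against Ctrl (adjusted p = 0.424 from limma, no overlap). Its r with Dbp was -0.20. Over 12 arrays, r with Dbp was 0.70 for Ppara, 0.65 for Por, 0.49 for Cyp2c50 and 0.47 for Alas1. It was 0.21 for Cyp4a14, 0.18 for Cyp4a10, 0.01 for Nr1i3 and -0.08 for Cyp2b10, all given as descriptions.

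Of 8 further rhythmic liver transcripts, 0 were called. Nampt, the enzyme of NAD salvage, had the pattern of Per2. It was 2.18, 1.92 and 2.18 in Ctrl, 2.08, 1.95 and 2.06 in RS, 1.67, 1.13 and 1.34 in DJ, and 1.73, 2.21 and 2.05 in DJ526. The DJ mice lay below all others, with a log2 fold change of -0.71 against Ctrl (SE 0.149, unadjusted p = 0.000571, adjusted p = 0.640 from limma) and 0.62 for DJ526 against DJ (adjusted p = 0.230 from limma). Upp2, which encodes uridine phosphorylase, followed Dbp with r = 0.81, and Cdkn1a ran against it with r = -0.86. For Gys2, Rgs16, Noct, Nampt, Tfrc and Lpin1 r was 0.68, 0.57, 0.29, 0.24, 0.07 and 0.04, all given as descriptions over 12 arrays. Of 8 fasting genes, 6 feeding genes and 7 glucocorticoid and immediate early genes, 0 were called in any comparison, and 0 had an unadjusted p under 0.05 in the 5 pairs of diets. The median log2 fold change of the feeding genes for DJ against Ctrl was -0.24 with all 6 lower, beside -0.02 over all probes. It was -0.33 for RS against Ctrl with 5 of 6 lower and -0.29 for DJ526 against Ctrl with 4 of 6 lower, and all these comparisons share the Ctrl mice. For DJ against Ctrl, the median of the fasting genes was 0.06, and that of the glucocorticoid and immediate early genes 0.18.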

How the data were processed

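Per the labels and file headers, liver RNA of each mouse was labelled with Cy3 and hybridised to a one-colour Agilent 4x44K v2 array, scanned and quantified with Feature Extraction 11.5.1.1. The authors deposited the intensity of each spot on a linear scale, the processed signal being background-subtracted but not scaled between arrays. A second deposited table, of intensity after the authors' global normalization, equalled the processed signal times 1 factor per array (0.959 to 1.08) for 99.6% to 99.8% of probes within a relative tolerance of 1e-04.

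Spots flagged as outliers and control spots were left out, spots of a probe were averaged, and the values were put on the log2 scale relative to the 75th percentile of the array, since the authors deposited linear values and no log2 ones. Probes were named through RefSeq accessions (GRCm38.p6), which gave a symbol to 27508 of 39429 (69.8%). A probe was taken as well above background where at least 50% of its spots were. limma 3.58.1 (R 4.3.3) was run with a mean for each group and a prior trending with signal (residual degrees of freedom 8), and adjusted by Benjamini-Hochberg over all probes. Each of the other diets was compared with Ctrl, and DJ526 also with DJ and with RS; the interaction of resveratrol with the diet and rice against starch and sucrose made 7 comparisons. Every member was described, and a fold change was singled out where its unadjusted p was under 0.05 or the groups did not overlap. Of each list of related genes, those with the largest changes were eligible to be named, and of these, few are given. The r values with Dbp of the genes driven by D-box factors and of the further rhythmic transcripts were added after values had been seen. Permutation tests and figures used Python 3.11.15, numpy 2.4.6, scipy 1.17.1, pandas 2.3.3 and matplotlib 3.10.9. The members and gene lists were chosen with earlier results of these data known. Alternatives covered background correction, scaling, filters, position on the array, the variance trend, the slide, the replicate number, the groups fitted, the methods' t-test and each mouse left out. Deviations of same-numbered arrays from their group means correlated above 0.1 in all 3 pairs for DJ with DJ526 (0.16 to 0.29) and in at most 1 of 3 for any other pair of groups, so the number was taken to pair DJ with DJ526 alone; the pairing comes from this check and not from the labels. Only 3 arrays per group limit the precision. The tools were tested on simulated data.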

Additional observations from a re-analysis of the deposited data

How the results depend on the processing

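No member probe was called in any of the 7 comparisons under any of the 24 to 27 alternatives that gave a value. The direction of the singled-out differences of Tef, Rora, Usp2 and Wee1 held under all of them. For Usp2, the log2 fold change of DJ against Ctrl ranged from -1.09 to -0.35 and that of DJ526 against DJ from 0.76 to 1.36; for Wee1 they ranged from -1.21 to -0.36 and from 0.61 to 1.43. For Rora, RS against Ctrl ranged from -0.58 to -0.28 and DJ526 against RS from 0.22 to 0.66. Bhlhe41 for DJ526 against DJ turned from 0.77 to -0.037 with normexp background correction. Dbp against Ctrl turned negative with the slide as a fixed block, to -0.59 in RS, -0.69 in DJ and -0.40 in DJ526, and for DJ also to -0.15 with the slide as a random block and to -0.061 with normexp. Leaving out each mouse in turn gave, for Dbp, values between -0.41 and 1.09 in RS, between -0.84 and 0.66 in DJ, and between -0.30 and 1.20 in DJ526, negative in each without Ctrl 2 and for DJ also without DJ 3 (-0.52); the cause was not tested.

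Over all probes the count of calls ranged from 0 to 4 for RS against Ctrl (0 in the fit as reported), 0 to 8 for DJ against Ctrl (0), 0 to 166 for DJ526 against Ctrl (2), 0 to 107 for DJ526 against DJ (4), 0 to 40 for DJ526 against RS (3), 0 to 18 for the difference between resveratrol effects (0) and 0 to 3 for rice (0). The counts of 166 and 107 were those without RS 3, and 40 that with the slide as a fixed block. The deposited table moved the median of all probes to 0.10 for DJ526 against DJ. With the replicate number as a block (replicate block), 0 member probes were called in each comparison, and 0 of all probes for DJ526 against Ctrl, DJ and RS. With DJ and DJ526 alone and this block, a fit chosen after seeing the data, 0 of all probes were called. Same-numbered samples correlated between -0.35 and 0.41 over 18 pairs, 6 of them above 0.1, of which 3 were those of DJ with DJ526; for the other groups the samples share only a number. DJ 2 correlated more with DJ526 3 (0.26) than with DJ526 2 (0.17). The t-test gave no value for the difference between effects, and the fit with only the compared groups none for it or for rice. A signal near background, as that of Bhlhe41, limits what can be read from it.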
